A study of Homo sapiens with 9 samples.

Results

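A set of 9 genes that mark bile duct epithelium were followed in RBE cells, a human cell line from a cholangiocarcinoma that arose within the liver. They are the keratin genes KRT7, KRT8, KRT18 and KRT19, the transcription factor gene SOX9, the secreted phosphoprotein gene SPP1, the water channel gene AQP1, the chloride channel gene CFTR and the adhesion gene EPCAM. They were chosen by symbol, 9 of the 36225 genes in the deposited table, and each symbol matched 1 row. Lentivirus brought in hairpins that target IDH1 (shIDH1) or JOSD2 (shJOSD2), or a scramble sequence (control), with 3 poly(A) RNA-seq libraries per group and 9 in all. All 3 groups are therefore infected cells of 1 line, and hairpin sequences and harvest time were not given in the sources used here. IDH1 encodes cytosolic isocitrate dehydrogenase, and JOSD2 a deubiquitinase.

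Keratins of simple epithelia form filaments as pairs of a type II chain (KRT7, KRT8) and a type I chain (KRT18, KRT19). Hepatocytes make mainly KRT8 and KRT18, and bile duct cells add KRT7 and KRT19, which pathologists use to recognise ductal differentiation. SOX9 is the classical transcription factor of embryonic and adult bile ducts, SPP1 (osteopontin) is secreted by duct cells and is abundant in cholangiocarcinoma, AQP1 and CFTR serve the secretion of water and chloride into bile, and EPCAM is an epithelial cell adhesion molecule of ducts and progenitors.

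The 9 libraries held 66036276 to 71612713 counts each, and a fragment may carry about 4 of them. IDH1 measured 12.4, 13.1 and 12.3 FPKM in shIDH1 libraries, 32.7, 35.2 and 35.5 FPKM in shJOSD2 libraries and 45.6, 38.9 and 47.4 FPKM in control libraries. JOSD2 measured 1.51, 1.85 and 1.70 FPKM in shIDH1 libraries, 0.771, 0.708 and 0.906 FPKM in shJOSD2 libraries and 6.66, 6.31 and 6.15 FPKM in control libraries. Each targeted gene was lowest with its own hairpin, and each was also below control with the other one: the fitted log2 change of JOSD2 was -1.90 ± 0.16 in shIDH1 cells (adjusted p = 7.69e-07) and -3.09 ± 0.17 in shJOSD2 cells (adjusted p = 1.08e-07), and that of IDH1 was -1.80 ± 0.07 in shIDH1 cells (adjusted p = 1.85e-09) and -0.50 ± 0.07 in shJOSD2 cells. FPKM is the number of fragments relative to transcript length and library size. It allows levels of different genes to be set side by side as far as the lengths used are right. Changes are log2 differences fitted by edgeR's quasi-likelihood test to the counts of all 21492 genes that passed its filter on low counts, given with their standard error (SE), and a gene was called at a Benjamini-Hochberg adjusted p under 0.05 over all of them. All 9 marker genes passed the filter. Whether replicate libraries are separate cultures is not stated in the labels, and p-values measure the spread between libraries only, which may be technical. In bulk RNA, fewer cells of a kind and less RNA per cell cannot be told apart.

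The duct keratins were abundant and the channel genes low. KRT19, KRT18, KRT8 and KRT7 stood among the 121 most abundant genes of the table in every group, and together they made up 0.587% ± 0.005 of all FPKM in shIDH1, 0.454% ± 0.013 in shJOSD2 and 0.559% ± 0.051 in control libraries (SD, n = 3 each). SPP1 ranked 124 in shIDH1, 417 in shJOSD2 and 817 in control cells. SOX9 and EPCAM lay near 20 FPKM and AQP1 below 7 FPKM, and CFTR stayed below 0.2 FPKM in all 9 libraries. Of hepatocyte transcripts, ALB lay between 0.104 and 1.43 FPKM, but SERPINA1 averaged 48.9 FPKM in shIDH1, 46.3 in shJOSD2 and 35.1 in control libraries, and the whole list is given further on. KRT5, a basal keratin, stayed below 0.1 FPKM. Of the 19 stratified-epithelial keratins in the table, 2 averaged at least 1 FPKM in each group. The most abundant, KRT15, averaged 4.83 FPKM in shIDH1, 3.18 in shJOSD2 and 4.57 in control libraries. PTPRC, the leukocyte marker CD45, lay between 0.574 and 1.14 FPKM. Of 11 leukocyte markers, 2 averaged at least 1 FPKM in each group. The most abundant, CD68, averaged 22.85, 22.05 and 30.1 FPKM in the same order of groups.

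**Figure D1:**
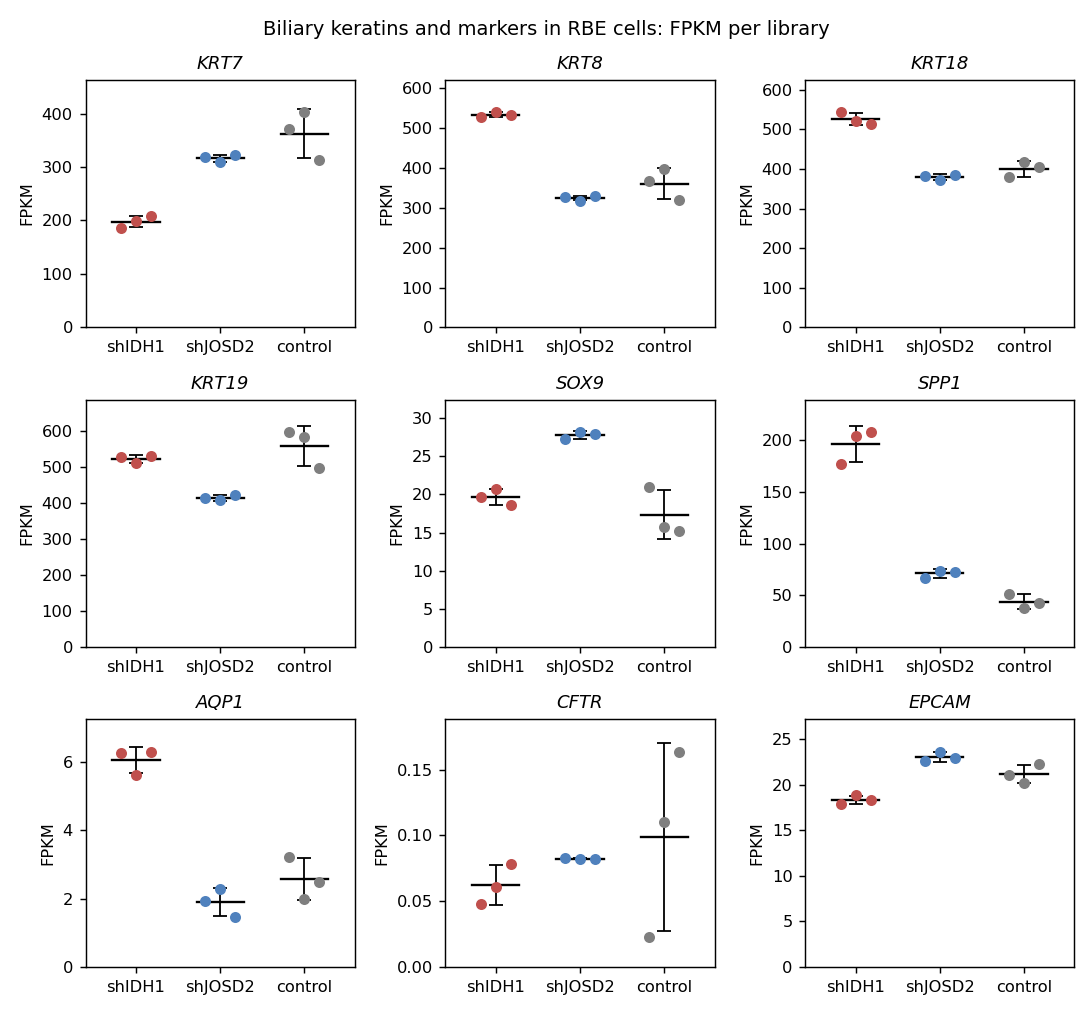
FPKM of each of the 9 genes in every library, 1 panel per gene with its own linear axis from 0; points are libraries, horizontal lines group means and bars SD (n = 3). The shIDH1 points of KRT7 lie below, and those of KRT8, KRT18, SPP1 and AQP1 above, all other libraries; CFTR lies below 0.2 FPKM throughout.

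Against control, 6 of the 9 genes were called in shIDH1 cells by edgeR's test, 4 higher and 2 lower, where 50.1% of all tested genes were called, 24.5% higher and 25.6% lower. SPP1, AQP1, KRT8 and KRT18 rose, KRT7 and EPCAM fell, and KRT19, SOX9 and CFTR did not pass the test. The median fitted change of the 9 was 0.18 log2 units, against 0.01 over all tested genes. The FPKM ranges of shIDH1 and control libraries were separate for 6 of the 9 genes, the same 6, and for 56.9% of all tested genes. In shJOSD2 cells 7 of the 9 were called, 2 higher (SPP1 and SOX9) and 5 lower (KRT19, AQP1, KRT7, KRT8 and KRT18), where 38.3% of all genes were called, 18.2% higher and 20.1% lower. The FPKM ranges of shJOSD2 and control libraries were separate for 4 of the 9 (SOX9, SPP1, EPCAM and KRT19) and for 51.7% of all tested genes. The median change of the 9 was -0.30 there, against 0.03 over all genes. Both comparisons share the 3 control libraries. With 4 of the 7 calls in shJOSD2 cells (KRT7, KRT8, KRT18 and AQP1), FPKM ranges overlapped, and those 4 calls ended without TMM factors.

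**Figure D2:**
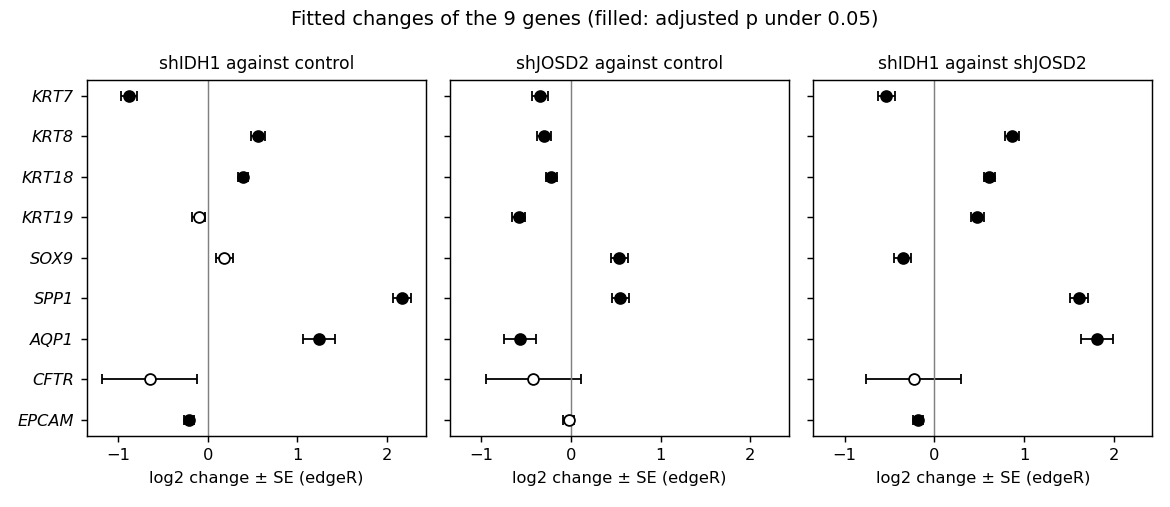
Fitted log2 changes (horizontal axis) of the 9 genes in shIDH1 against control, shJOSD2 against control and shIDH1 against shJOSD2; bars are SE, filled points passed an adjusted p of 0.05 over all tested genes and open points did not. KRT8 and KRT18 lie right of 0 in the left panel and left of 0 in the middle panel, and SPP1 lies right of 0 in all 3.

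KRT8 (ENSG00000170421; GRCh38 chromosome 12, 52897187 to 52949920, minus strand) encodes the type II keratin common to all simple epithelia. Its level was 528, 541 and 533 FPKM in the shIDH1 libraries, 326, 318 and 330 FPKM in the shJOSD2 libraries and 366, 397 and 320 FPKM in the control libraries. The shIDH1 libraries were all higher than the other 6, while the shJOSD2 and control ranges overlapped through control replicate 3. In shIDH1 cells KRT8 rose by a log2 change of 0.56 ± 0.08 (SE; adjusted p = 7.20e-05), a 1.47-fold rise. In shJOSD2 cells its fitted change was -0.30 ± 0.08 (adjusted p = 0.00916). That call ended under library sizes without TMM factors, where the change was -0.15 (adjusted p = 0.133). It ended too under upper-quartile scaling, at -0.215 (adjusted p = 0.0533), and in both limma fits (adjusted p = 0.157 and 0.165). Between the hairpins KRT8 stood higher in shIDH1 cells by 0.86 ± 0.08 (adjusted p = 2.47e-06).

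KRT18 (ENSG00000111057; chromosome 12, 52948871 to 52952900, plus strand), the usual type I partner of KRT8, lies beside it in the genome although most type I keratin genes are on chromosome 17. It stood at 544, 521 and 514 FPKM in shIDH1 libraries, at 383, 372 and 385 FPKM in shJOSD2 libraries and at 379, 417 and 404 FPKM in control libraries. As for KRT8, the shIDH1 libraries were separate from the rest and the other groups overlapped. KRT18 rose by 0.39 ± 0.06 in shIDH1 cells (adjusted p = 0.000159) and was higher there than in shJOSD2 cells by 0.62 ± 0.06 (adjusted p = 4.71e-06). Its change in shJOSD2 cells was small, -0.22 ± 0.06 (adjusted p = 0.0120). It was -0.07 without TMM factors (adjusted p = 0.374), -0.13 under upper-quartile scaling (adjusted p = 0.107), -0.20 without shJOSD2 replicate 2 (adjusted p = 0.0688) and -0.11 against control replicate 1 alone (adjusted p = 0.252). The KRT8 and KRT18 loci as annotated in the deposited table overlap by 1050 bases on opposite strands. No source used here gives the strand setting of the counting, so reads from that stretch cannot be assigned with certainty. The RefSeq start of KRT8, 52926469, lies 23451 bases downstream of the start in that table, and from there KRT8 does not reach KRT18. Both genes also have many processed pseudogenes: 30 of KRT8 summed to between 0.613% and 0.732% of the KRT8 count over the 9 libraries, and 39 of KRT18 to between 0.135% and 0.253% of the KRT18 count. The most abundant, KRT8P3, averaged 10.95 ± 0.145 FPKM in shIDH1, 5.63 ± 0.125 in shJOSD2 and 7.21 ± 1.08 in control libraries (SD, n = 3 each). KRT18P59, the most abundant KRT18 pseudogene, averaged 0.273 ± 0.0593, 0.251 ± 0.0475 and 0.192 ± 0.0360 FPKM in the same groups, KRT19P2 stood at 0.0347 ± 0.0600 FPKM in shJOSD2 libraries and was listed at 0 in the rest, and KRT7 had no pseudogene in the table.

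KRT7 (ENSG00000135480; chromosome 12, 52232520 to 52252186, plus strand) is the type II keratin of ductal epithelium. It measured 186, 199 and 207 FPKM in shIDH1 libraries, 318, 309 and 322 FPKM in shJOSD2 libraries and 371, 403 and 312 FPKM in control libraries. All shIDH1 libraries lay below the other 6, and control replicate 3 fell within the shJOSD2 range. KRT7 fell by 0.88 ± 0.09 log2 units in shIDH1 cells (adjusted p = 5.58e-06), 1.84-fold lower than in control, and by 0.34 ± 0.09 in shJOSD2 cells (adjusted p = 0.0104). The second call ended without TMM factors, where the change was -0.19 (adjusted p = 0.104), and without shJOSD2 replicate 2 (adjusted p = 0.0512). KRT7 was lower in shIDH1 than in shJOSD2 cells by a log2 difference of -0.53 ± 0.09 (adjusted p = 0.000419). The antisense gene KRT7-AS, which overlaps KRT7 over 2401 bases, averaged 6.32 ± 0.504 FPKM in shIDH1, 9.30 ± 0.296 in shJOSD2 and 12.4 ± 0.619 in control libraries (SD, n = 3 each), in the same order as KRT7, and without a known strand setting reads of the pair cannot be told apart.

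KRT19 (ENSG00000171345; chromosome 17, 41523617 to 41528308, minus strand), the small type I keratin of ducts and progenitors, had the highest mean FPKM of the 4 in control cells. Its level was 528, 511 and 532 FPKM in shIDH1 libraries, 414, 408 and 423 FPKM in shJOSD2 libraries and 599, 585 and 497 FPKM in control libraries. Here the shJOSD2 libraries were the ones that stood below all others, and the shIDH1 and control ranges overlapped. KRT19 fell by 0.58 ± 0.07 in shJOSD2 cells (adjusted p = 4.67e-05), a 1.5-fold drop that stayed called in all 21 alternatives run for it. In shIDH1 cells the change was -0.10 ± 0.07 (adjusted p = 0.276), and -0.17 without control replicate 3 (adjusted p = 0.0294). The difference between the hairpins, 0.48 ± 0.07 in favour of shIDH1 cells, passed the test (adjusted p = 0.000135).

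In both shIDH1 and shJOSD2 cells the keratin pool differed from control in make-up, and in shJOSD2 cells it was also smaller. KRT19 held 29.4% ± 0.480 of the FPKM of the 4 genes in shIDH1, 28.9% ± 0.157 in shJOSD2 and 33.3% ± 1.43 in control libraries. The summed level of the 4 genes was 1782 ± 8.54 FPKM in shIDH1, 1437 ± 26.8 FPKM in shJOSD2 and 1684 ± 137 FPKM in control libraries (SD, n = 3 each), and the shIDH1 range lay inside the control range while every shJOSD2 library lay below it. Among the type II chains, KRT7 held 27.0% ± 0.946 of the summed FPKM in shIDH1 libraries, 49.4% ± 0.0564 in shJOSD2 libraries and 50.0% ± 0.566 in control libraries. KRT8 thus stood at 2.71 ± 0.129 times the level of KRT7 in shIDH1 cells, against 1.03 ± 0.00232 times in shJOSD2 cells and 0.999 ± 0.0228 times in control cells. Among the type I chains, the ratio of KRT18 to KRT19 was 1.0 ± 0.0343 in shIDH1, 0.915 ± 0.00885 in shJOSD2 and 0.719 ± 0.0906 in control libraries. The ratio of KRT8 to its partner KRT18 varied less, at 1.02 ± 0.0393, 0.855 ± 0.00336 and 0.904 ± 0.0972 in the same groups. These ratios are within a library and do not depend on its scaling, and they are given as descriptions without a test. In order of FPKM, KRT8, KRT18 and KRT19 did not differ beyond their spread in shIDH1 cells and KRT7 lay below them. In control cells KRT19 came first by FPKM, and KRT18, KRT7 and KRT8 followed with overlapping ranges. This order and the ratios between genes rest on the transcript lengths behind the deposited FPKM. Counts, not corrected for length, summed in control libraries to 535172 for KRT8, 311875 for KRT7, 282043 for KRT19 and 264042 for KRT18. In shIDH1 libraries they summed to 799650 for KRT8, 351400 for KRT18, 266404 for KRT19 and 172135 for KRT7.

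**Figure D3:**
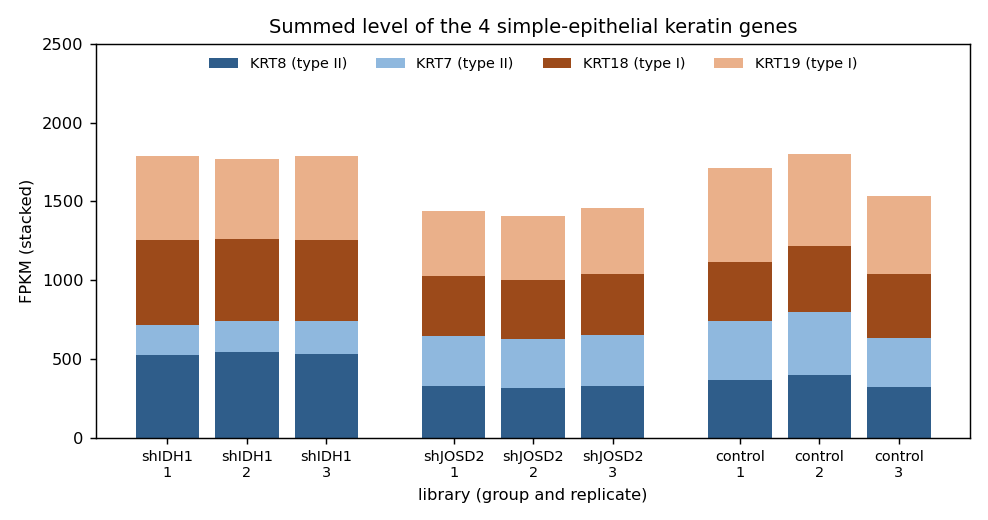
Stacked FPKM of KRT8, KRT7, KRT18 and KRT19 (vertical axis, linear from 0) in each of the 9 libraries, grouped as shIDH1, shJOSD2 and control. The KRT7 segment is narrowest in the shIDH1 libraries, 186 to 207 FPKM, while the height of the whole bar stays between 1408 and 1802 FPKM in all libraries.

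SOX9 (ENSG00000125398; chromosome 17, 72121020 to 72126416, plus strand) measured 19.7, 20.7 and 18.7 FPKM in shIDH1 libraries, 27.2, 28.2 and 27.9 FPKM in shJOSD2 libraries and 21.0, 15.8 and 15.2 FPKM in control libraries. The shJOSD2 libraries were above all others, and control replicate 1 was the only control library above the shIDH1 mean. SOX9 rose by 0.54 ± 0.10 in shJOSD2 cells (adjusted p = 0.000739), a 1.45-fold rise called in all 21 alternatives, with 0.29 as the lowest value, against control replicate 1 alone (adjusted p = 0.0166). In shIDH1 cells the change was 0.18 ± 0.10 (adjusted p = 0.133). It was 0.34 and called without control replicate 1 (adjusted p = 0.000997), 0.29 and called under upper-quartile scaling (adjusted p = 0.0224), and -0.06 against control replicate 1 alone. SOX9 was lower in shIDH1 than in shJOSD2 cells by -0.35 ± 0.10 (adjusted p = 0.00908).

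SPP1 and AQP1 changed most among the 9 genes in shIDH1 cells, and the 250 bases before their RefSeq starts are shown because both rose there and had the largest differences between the hairpins. They are RefSeq sequences of the build GRCh38.p14, for SPP1 chr4:87975464-87975713 and for AQP1 chr7:30911603-30911852, both on the plus strand, 5′ to 3′. The RefSeq start of AQP1 is that of the deposited table, while that of SPP1, 87975714, lies 64 bases downstream of the start in the deposited table, so the last 64 bases of its window fall inside the gene as given there. Windows were found for 4 of the 9 genes (KRT8, SPP1, AQP1 and CFTR). Capitals mark matches to 8 short motifs searched on both strands.
SPP1: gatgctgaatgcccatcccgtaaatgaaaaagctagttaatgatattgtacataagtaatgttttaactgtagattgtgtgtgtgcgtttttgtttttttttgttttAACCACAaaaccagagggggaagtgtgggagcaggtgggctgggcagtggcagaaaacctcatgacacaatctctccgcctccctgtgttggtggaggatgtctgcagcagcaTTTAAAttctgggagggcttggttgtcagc
AQP1: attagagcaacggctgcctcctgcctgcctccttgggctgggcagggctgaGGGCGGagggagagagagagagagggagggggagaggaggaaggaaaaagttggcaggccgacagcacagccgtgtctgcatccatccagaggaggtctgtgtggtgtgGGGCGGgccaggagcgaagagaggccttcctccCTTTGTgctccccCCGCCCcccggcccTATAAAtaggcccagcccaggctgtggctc
SPP1 held the RUNX motif AACCACA 143 bases before the RefSeq start. It held TTTAAA, similar to the TATA box, 30 bases before that start. AQP1 held 3 GC boxes (GGGCGG, on either strand), ACAAAG, the SOX motif, on the minus strand, and TATAAA, the TATA box, 30 bases before the start. Of 35116 such windows, 3.65% held AACCACA, 11.3% TTTAAA, 42.6% GGGCGG, 13.7% ACAAAG and 10.7% TATAAA. The other motifs searched were CATTCC, the TEAD motif (11.9% of windows), TGANTCA, the AP-1 motif (6.57%), and CCAAT, the CCAAT box (32.0%), and their letters are not in these 2 windows. AACCACA and TTTAAA were added after the SPP1 window had been seen. A match is a description of letters and not a binding site.

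SPP1 (ENSG00000118785; chromosome 4, 87975650 to 87983426, plus strand) stood at 176, 204 and 208 FPKM in shIDH1 libraries, at 66.5, 73.8 and 73.0 FPKM in shJOSD2 libraries and at 51.5, 37.9 and 42.5 FPKM in control libraries. The 3 groups did not overlap, with control replicate 1 the closest to the shJOSD2 libraries. SPP1 rose by 2.16 ± 0.10 in shIDH1 cells (adjusted p = 5.93e-09), a 4.47-fold rise, and 7.34% of all tested genes had a larger absolute change. In shJOSD2 cells it rose by 0.55 ± 0.10 (adjusted p = 0.000701), or 1.46-fold. Its level was higher in shIDH1 than in shJOSD2 cells by 1.61 ± 0.10 (adjusted p = 8.28e-08). All of these calls held in every alternative run for them, 21 for each comparison with control and 20 between the hairpins, with shIDH1 changes between 1.97 and 2.28.

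AQP1 (ENSG00000240583; chromosome 7, 30911853 to 30925516, plus strand) measured 6.27, 5.62 and 6.31 FPKM in shIDH1 libraries, 1.94, 2.29 and 1.48 FPKM in shJOSD2 libraries and 3.23, 2.00 and 2.48 FPKM in control libraries. Every shIDH1 library lay above the rest, and the shJOSD2 and control ranges overlapped. AQP1 rose by 1.24 ± 0.18 in shIDH1 cells (adjusted p = 8.06e-05), a 2.36-fold rise. In shJOSD2 cells the change was -0.57 ± 0.18 (adjusted p = 0.0236), which was called in 14 of 21 alternatives. It was no longer called without control replicate 1, where it was -0.39 (adjusted p = 0.108), without shJOSD2 replicate 3, where it was -0.41 (adjusted p = 0.103), or without shJOSD2 replicate 1 (adjusted p = 0.0601). The difference between the hairpins, 1.81 ± 0.18, was the largest of the 9 in that comparison (adjusted p = 4.90e-06), and 6.92% of all tested genes had a larger one.

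CFTR (ENSG00000001626; chromosome 7, 117287120 to 117715948, plus strand), the chloride channel of the apical duct membrane, was hardly detected. It measured 0.0478, 0.0610 and 0.0785 FPKM in shIDH1 libraries, 0.0827, 0.0822 and 0.0819 FPKM in shJOSD2 libraries and 0.0225, 0.110 and 0.164 FPKM in control libraries, on 18 to 118 deposited counts each. The control libraries spanned the ranges of both other groups. The fitted change was -0.65 ± 0.53 in shIDH1 cells (adjusted p = 0.342) and -0.42 ± 0.53 in shJOSD2 cells (adjusted p = 0.585), and neither passed the test. The CFTR locus given above overlaps CTTNBP2 over 5298 bases and WNT2 over 35980 bases, both on the opposite strand. Its RefSeq start lies 192905 bases downstream of the start given above. CTTNBP2 averaged 0.753, 1.79 and 0.652 FPKM and WNT2 0.0432, 0.306 and 0.0738 FPKM in shIDH1, shJOSD2 and control libraries. Without a known strand setting, reads from the shared stretches cannot be assigned with certainty. Control replicate 1 had the lowest CFTR level of all libraries. Without it the shIDH1 change was -1.11 (adjusted p = 0.0196), and against it alone 1.42 (adjusted p = 0.0661).

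EPCAM (ENSG00000119888; chromosome 2, 47345158 to 47387601, plus strand) varied least. Its level was 17.9, 18.8 and 18.3 FPKM in shIDH1 libraries, 22.6, 23.6 and 23.0 FPKM in shJOSD2 libraries and 21.1, 20.3 and 22.3 FPKM in control libraries. The 3 groups did not overlap in FPKM, with shIDH1 lowest and shJOSD2 highest. EPCAM fell by 0.21 ± 0.06 in shIDH1 cells (adjusted p = 0.0113), a call that ended without control replicate 3 (adjusted p = 0.0555), against control replicate 1 alone (adjusted p = 0.133) and under upper-quartile scaling (adjusted p = 0.193). In shJOSD2 cells the fitted change was -0.03 ± 0.06 (adjusted p = 0.782) with FPKM values above those of control, and it was 0.13 without TMM factors (adjusted p = 0.111). The difference between the hairpins was -0.18 ± 0.06 (adjusted p = 0.0251), and 6 of 20 alternatives did not call it, among them the fits without any one of the shJOSD2 replicates.

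Between the hairpins edgeR called 8 of the 9 genes, 5 higher in shIDH1 cells (AQP1, SPP1, KRT8, KRT18 and KRT19) and 3 lower (KRT7, SOX9 and EPCAM), where 44.8% of all tested genes were called, 20.8% higher and 24.0% lower. The FPKM ranges of the 2 groups were separate for all 9 genes and for 58.4% of all tested genes. CFTR was the gene not called, at -0.23 ± 0.53 (adjusted p = 0.769). Its means were only 0.0624 FPKM in shIDH1 and 0.0822 FPKM in shJOSD2 libraries. The median change of the 9 was 0.48 log2 units, against -0.06 over all genes.

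Other genes of bile duct cells were read from a list of 31, of which 26 were tested. In shIDH1 cells 18 rose and 1 fell, with a median change of 0.52 log2 units against 0.01 over all genes. Beside this and the other list counts stand the shares of all tested genes that were called, which were 24.5% higher and 25.6% lower in shIDH1 cells, 18.2% higher and 20.1% lower in shJOSD2 cells, and 20.8% higher and 24.0% lower between the hairpins. DCDC2, a ciliary doublecortin-domain gene, averaged 29.0 ± 2.26 FPKM in shIDH1 and 4.43 ± 0.574 FPKM in control libraries (SD, n = 3 each) and rose by 2.71 ± 0.09 (adjusted p = 9.18e-10). PKHD1, the gene of fibrocystin and of recessive polycystic disease of kidney and bile ducts, rose by 2.21 ± 0.08 (adjusted p = 1.87e-09). FOXA1, an endodermal forkhead factor, fell by 0.22 ± 0.08 (adjusted p = 0.0343), a call that held in 9 of 21 alternatives and ended under upper-quartile scaling (-0.11, adjusted p = 0.263) and without any 1 library other than shIDH1 replicate 1 or control replicate 1 (adjusted p between 0.0574 and 0.136). In shJOSD2 cells 11 rose and 7 fell, with a median of 0.08 against 0.03 over all genes. PKHD1 rose there too, by 1.5 ± 0.08 (adjusted p = 1.12e-07), and PKD2, the polycystin-2 channel, by 0.81 ± 0.07 (adjusted p = 2.55e-06). CLDN7, a tight junction claudin that binds EPCAM, fell by 1.53 ± 0.15 (adjusted p = 9.49e-06). Between the hairpins 14 were higher and 3 lower in shIDH1 cells, led by DCDC2 with 2.39 ± 0.09 (adjusted p = 2.08e-09), GGT1, the gamma-glutamyltransferase read in cholestasis, with 1.77 ± 0.06 (adjusted p = 1.61e-09), and FXYD2, a sodium pump subunit of duct cells, with 1.70 ± 0.08 (adjusted p = 1.40e-08). CLDN4, a claudin, was the most abundant of the list, at 61.8 ± 5.40 FPKM in shIDH1, 49.0 ± 1.75 FPKM in shJOSD2 and 53.6 ± 2.16 FPKM in control libraries.

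**Figure D4:**
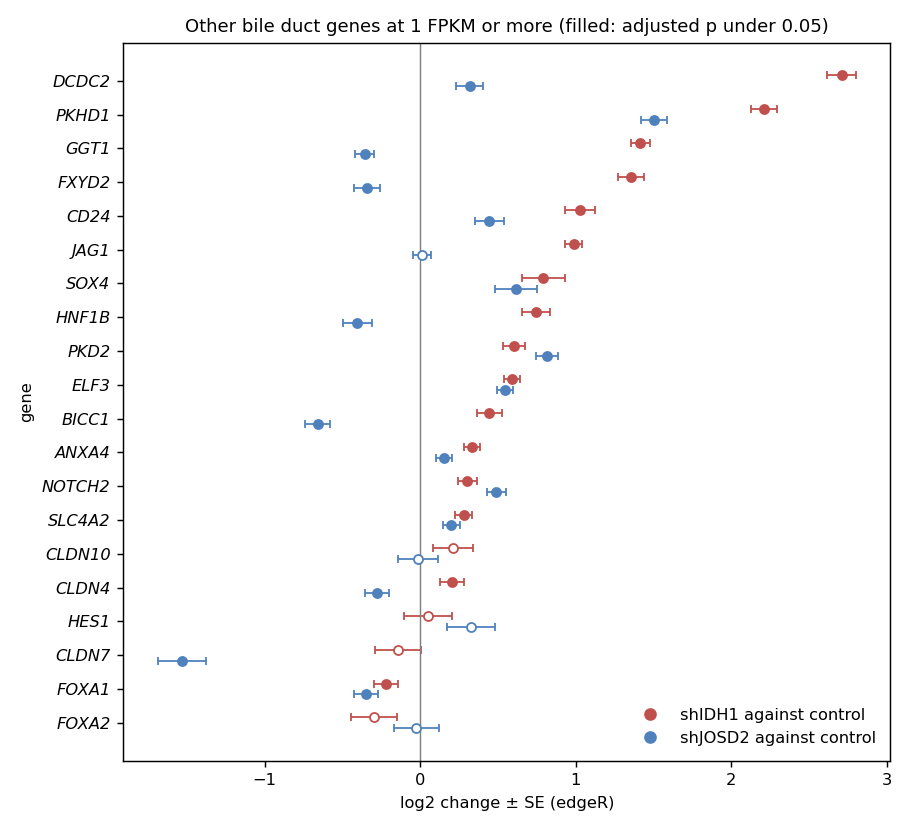
Fitted log2 changes (horizontal axis) with SE of 20 other bile duct genes that reached 1 FPKM in a group, in shIDH1 against control and shJOSD2 against control; filled points passed an adjusted p of 0.05. Most shIDH1 points lie right of 0, up to DCDC2 at 2.71, while the shJOSD2 points lie on both sides, from CLDN7 at -1.53 to PKHD1 at 1.5.

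Other keratin genes were far less abundant than the 4 above, except KRT80, a type II epithelial keratin, which averaged 85.6 ± 1.53 FPKM in shIDH1, 113.8 ± 1.34 FPKM in shJOSD2 and 92.1 ± 4.40 FPKM in control libraries, had a change of 0.16 ± 0.05 in shJOSD2 cells (adjusted p = 0.0367), and was lower in shIDH1 than in shJOSD2 cells by -0.26 ± 0.05 (adjusted p = 0.00151). The shJOSD2 call of KRT80 held in 11 of 21 alternatives, and ended with RLE factors (adjusted p = 0.0515), without control replicate 3 (adjusted p = 0.102) and without each of the shJOSD2 replicates 1, 2 and 3 (adjusted p = 0.0826, 0.0623 and 0.0784), as well as without shIDH1 replicate 2 or 3 (adjusted p = 0.0575 and 0.0537). Of the 9 keratins of this list, KRT80 among them, 6 were tested, and 1 rose and 1 fell in shIDH1 cells. In shJOSD2 cells 1 rose, which was KRT80 itself, and 2 fell. KRT81, a hair keratin, had 5.33 ± 0.379 FPKM in shIDH1, 6.78 ± 0.518 FPKM in shJOSD2 and 20.2 ± 4.99 FPKM in control libraries, and fell by 1.93 ± 0.16 (adjusted p = 7.38e-07) and 1.73 ± 0.16 (adjusted p = 4.91e-06) in the shIDH1 and shJOSD2 cells. KRT86, the other hair keratin above 1 FPKM, overlaps KRT7 over 2887 bases on the same strand and rose by 0.80 ± 0.22 in shIDH1 cells (adjusted p = 0.00903), or 0.59 without shIDH1 replicate 3 (adjusted p = 0.0557). KRT23, an acidic keratin, fell by 0.88 ± 0.23 in shJOSD2 cells (adjusted p = 0.00858; -0.26 and adjusted p = 0.491 against control replicate 1 alone) and was higher in shIDH1 than in shJOSD2 cells by 1.41 ± 0.23 (adjusted p = 0.000259). KRT222, a keratin-like gene, lay between 1.13 and 1.80 FPKM in the group means and was lower in shIDH1 than in shJOSD2 cells, by -0.52 ± 0.19 (adjusted p = 0.0423), a call held in 12 of 20 alternatives and lost without shIDH1 replicate 1 (adjusted p = 0.154), without shIDH1 replicate 2 (adjusted p = 0.0615), without shJOSD2 replicate 1 (adjusted p = 0.144), without shJOSD2 replicate 2 (adjusted p = 0.110) and without control replicate 3 (adjusted p = 0.0514). Of 22 keratins of stratified epithelia 9 were tested, and 1 rose and 1 fell in shIDH1 cells and 2 rose and 2 fell in shJOSD2 cells. KRT15 and KRT10 were the ones above 1 FPKM, and KRT15 fell in shJOSD2 cells by 0.67 ± 0.11 (adjusted p = 0.000407). KRT10 measured 1.91, 1.36 and 1.81 FPKM in shJOSD2 libraries and 2.23, 1.88 and 3.92 FPKM in control libraries, with overlapping ranges. Its change of -0.80 ± 0.25 (adjusted p = 0.0238) was -0.42 without control replicate 3 (adjusted p = 0.135), and was not called without shJOSD2 replicate 2 (adjusted p = 0.103), without shJOSD2 replicate 3 (adjusted p = 0.0557) or without TMM factors (adjusted p = 0.0611). KRT15 was higher in shIDH1 than in shJOSD2 cells by 0.75 ± 0.11 (adjusted p = 0.000122).

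Genes of proteins that anchor or bind keratin filaments moved in both directions. Of 17 listed, 16 were tested, and 3 rose and 9 fell in shIDH1 cells (median -0.24 against 0.01 over all genes), while 2 rose and 7 fell in shJOSD2 cells (median -0.20 against 0.03). DSP, desmoplakin, which ties keratins to desmosomes, averaged 23.8 ± 1.45 FPKM in shIDH1, 9.22 ± 0.455 FPKM in shJOSD2 and 29.6 ± 2.15 FPKM in control libraries, and fell by 1.83 ± 0.07 in shJOSD2 cells (adjusted p = 4.72e-09). PLEC, plectin, a linker of intermediate filaments, fell by 1.23 ± 0.09 there (adjusted p = 5.92e-07). DSG2 and DSC2, a desmoglein and a desmocollin of desmosomes, rose by 1.24 ± 0.07 (adjusted p = 4.63e-08) and 1.43 ± 0.09 (adjusted p = 6.49e-08) in shIDH1 cells, and DSC2 also in shJOSD2 cells, by 1.05 ± 0.09 (adjusted p = 2.54e-06). TCHP, trichoplein, a keratin-binding protein, fell by 1.64 ± 0.08 in shIDH1 cells (adjusted p = 1e-08). Between the hairpins 6 were higher and 5 lower in shIDH1 cells, led by DSP with 1.51 ± 0.06 (adjusted p = 5.60e-09), DSG2 with 1.34 ± 0.08 (adjusted p = 4.25e-08) and TCHP with -0.87 ± 0.08 (adjusted p = 2.63e-06). VIM, the mesenchymal filament vimentin, was the most abundant of the list and exceeded each keratin, at 603.6 ± 29.5 FPKM in shIDH1, 545.7 ± 4.50 FPKM in shJOSD2 and 680.6 ± 28.2 FPKM in control libraries.

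Receptors for osteopontin and its gene family were also read. Of 14 genes 9 were tested, and 6 rose and 1 fell in shIDH1 cells (median 0.83 against 0.01) and 3 rose and 2 fell in shJOSD2 cells (median -0.07 against 0.03, and up to 0.08 under other scalings). The integrin subunits ITGB3, ITGA5 and ITGAV rose by 1.61 ± 0.09 (adjusted p = 3.93e-08), 1.20 ± 0.09 (adjusted p = 2.63e-07) and 1.09 ± 0.09 (adjusted p = 4.35e-07) in shIDH1 cells. ITGB1, the most abundant of the list, averaged 626.4 ± 40.5 FPKM in shIDH1, 463.5 ± 15.8 FPKM in shJOSD2 and 351.4 ± 22.7 FPKM in control libraries. In shJOSD2 cells ITGB3 rose by 1.17 ± 0.09 (adjusted p = 1.57e-06), ITGA5 by 0.88 ± 0.09 (adjusted p = 9.62e-06), and ITGAV fell by 0.42 ± 0.09 (adjusted p = 0.00197; not called by limma, adjusted p = 0.0665 and 0.0612). Between the hairpins 6 were higher in shIDH1 cells and none lower, with ITGAV at 1.5 ± 0.09, ITGB1 at 0.58 ± 0.06 and CD44, a hyaluronan receptor that binds osteopontin, at 0.56 ± 0.05.

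Of 16 partners and proteases of EPCAM, 9 rose and 2 fell in shIDH1 cells (median 0.16 against 0.01), and 4 rose and 6 fell in shJOSD2 cells (median -0.13 against 0.03, and up to 0.02 under other scalings). CLDN1, a claudin, averaged 139 ± 4.62 FPKM in shIDH1, 51.8 ± 1.33 FPKM in shJOSD2 and 82.2 ± 9.42 FPKM in control libraries, and ST14, the surface protease matriptase, fell by 1.3 ± 0.09 in shIDH1 cells (adjusted p = 1.23e-07). ADAM17, a sheddase that cleaves EPCAM, rose by 0.88 ± 0.09 there (adjusted p = 2.75e-06). In shJOSD2 cells CLDN1 fell by 0.81 ± 0.07 (adjusted p = 3.04e-06) and CD9, a tetraspanin, by 0.97 ± 0.06 (adjusted p = 3.47e-07). Between the hairpins 11 were higher and 3 lower in shIDH1 cells, with CLDN1 at 1.57 ± 0.07, CLDN7 at 1.39 ± 0.15 and ST14 at -1.45 ± 0.09.

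Genes of ductal chloride, bicarbonate and proton transport, the setting of CFTR, were split. Of 21 listed 18 were tested, and 9 rose and 6 fell in shIDH1 cells (median 0.25 against 0.01), while 5 rose and 4 fell in shJOSD2 cells (median -0.15 against 0.03, and up to 0.01 under other scalings). ANO1, a calcium-activated chloride channel, averaged 0.0659 ± 0.0286 FPKM in shIDH1, 0.179 ± 0.0687 FPKM in shJOSD2 and 1.0 ± 0.229 FPKM in control libraries, and fell by 3.89 ± 0.37 (adjusted p = 2.36e-06) and 2.62 ± 0.34 (adjusted p = 7.49e-05) in the shIDH1 and shJOSD2 cells. The carbonic anhydrases CA12 and CA2 fell by 2.57 ± 0.17 (adjusted p = 7.84e-08) and 1.92 ± 0.17 (adjusted p = 1.01e-06) in shIDH1 cells. PDZK1, a scaffold of membrane transporters, was higher in shIDH1 than in shJOSD2 cells by 2.43 ± 0.11 (adjusted p = 8.02e-09) and fell by 0.80 ± 0.11 in shJOSD2 cells (adjusted p = 8.81e-05), where SLC4A4, a sodium bicarbonate cotransporter, rose by 1.13 ± 0.14 (adjusted p = 4.86e-05). CA12 and CA2 were lower in shIDH1 than in shJOSD2 cells by -2.4 ± 0.16 and -1.3 ± 0.17, among 5 higher and 6 lower. EZR, the scaffold ezrin, was the most abundant of the list, at 176.3 ± 1.77 FPKM in shIDH1, 104.9 ± 1.16 FPKM in shJOSD2 and 144.0 ± 5.67 FPKM in control libraries. Besides AQP1, AQP11, an intracellular aquaporin, rose by 0.93 ± 0.27 in shIDH1 (adjusted p = 0.0113) and by 1.49 ± 0.27 in shJOSD2 cells (adjusted p = 0.000769), 1 of 2 aquaporins that rose in each comparison among 7 tested of 12 listed, with none lower. Besides SOX9, 7 of 18 SOX genes were tested, and 2 rose and 3 fell in shIDH1 cells and 2 rose and 1 fell in shJOSD2 cells. SOX4, a factor of early bile duct development in the mouse, rose by 0.79 ± 0.14 in shIDH1 cells (adjusted p = 0.000363) and by 0.62 ± 0.14 in shJOSD2 cells (adjusted p = 0.00336). SOX13 and SOX12 changed by -0.26 ± 0.10 (adjusted p = 0.0475) and -0.25 ± 0.09 (adjusted p = 0.0292) in shIDH1 cells, calls that held in 5 and 14 of 21 alternatives. Both ended under upper-quartile scaling (adjusted p = 0.255 and 0.188) and without shIDH1 replicate 1, shIDH1 replicate 3 or control replicate 2 (adjusted p between 0.0557 and 0.120). That of SOX13 ended also without shIDH1 replicate 2 (adjusted p = 0.113) without control replicate 1 (adjusted p = 0.135) and without shJOSD2 replicate 1 or 3 (adjusted p = 0.0657 and 0.0616), and that of SOX12 without control replicate 3 (adjusted p = 0.0642). SOX13 fell in shJOSD2 cells by 0.84 ± 0.10 (adjusted p = 3.41e-05). Between the hairpins SOX13 was higher in shIDH1 cells by 0.59 ± 0.10 and SOX12 lower by -0.34 ± 0.09.

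Genes with the most similar profile were sought among 13258 genes of at least 1 FPKM in a group, by the root mean square distance of log2(FPKM + 1), centred on each gene's own mean, over the 9 libraries. INHBA, an activin subunit, was nearest to SPP1 (0.0679 log2 units), followed by the cytokine gene TNFSF15 (0.107) and COL18A1, a basement membrane collagen (0.127). BID, a proapoptotic BCL2 relative, was nearest to KRT7 (0.0446), with the stratifin gene SFN (0.0768) and CCM2 (0.0777) next. For KRT8 they were ZRANB1 (0.0511), MVP (0.0580) and PYGB (0.0608), and for KRT18 PIGK (0.0458), TXNDC12 (0.0527) and HIBCH (0.0528). KRT19 had KHDRBS3 (0.0607), EPS8L3 (0.0611) and AGTRAP (0.0692) nearest, and SOX9 had MTURN (0.0364), MXI1 (0.0705) and BEAN1 (0.0722). AQP1 was followed by CTTNBP2NL (0.110), MAP1B (0.118) and MANSC1 (0.123), and EPCAM by PRELID3B (0.0333), TJAP1 (0.0345) and XRN2 (0.0404). Flat profiles have many near neighbours, so 740 genes lay within 0.1 log2 units of EPCAM, 20 of KRT7, 1 of SPP1 and none of AQP1.

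Markers of other cell types were measured beside these changes. No gene of the deposited table, 36225 in all, was at 0 in all 9 libraries. That holds for the markers in it by construction and does not show that each was expressed. Listed markers absent from the table have no value here. The 20 hepatocyte markers summed to 133 to 145 FPKM in shIDH1, 78.7 to 82.2 FPKM in shJOSD2 and 50.9 to 110 FPKM in control libraries, and 5 rose and 7 fell in shIDH1 cells (median -0.28 against 0.01 over all genes), where 50.1% of all genes were called. In shJOSD2 cells 6 rose and 5 fell (median -0.30 against 0.03), where 38.3% of all genes were called. FGB and FGA, of fibrinogen, rose by 4.65 ± 0.09 (adjusted p = 3.12e-11) and 3.37 ± 0.19 (adjusted p = 2.47e-08) in shIDH1 cells, and FGB by 1.91 ± 0.08 (adjusted p = 1.31e-08) in shJOSD2 cells. APOA2, an apolipoprotein, changed by -4.56 ± 1.5 in shIDH1 cells, and APOA1 and AHSG, a plasma glycoprotein, by -2.93 ± 0.69 and -2.24 ± 0.73 in shJOSD2 cells. Against control replicate 1 alone these 3 changes turned to 5.24, 0.45 and 1.25, none of them called, and those of APOA2 and AHSG were not called in 8 of 19 and 9 of 21 alternatives, among them the fits without control replicate 2 (adjusted p = 0.0619 and 0.0895) and without control replicate 3 (adjusted p = 0.0794 and 0.112). The APOA2 call also ended without shIDH1 replicate 1 or 3 (adjusted p = 0.0725 and 0.0707), and the AHSG call without shJOSD2 replicate 1 or 3 (adjusted p = 0.106 and 0.110). FGB, FGA and AMBP were higher in shIDH1 than in shJOSD2 cells by 2.73 ± 0.08, 2.49 ± 0.18 and 1.45 ± 0.13, and SERPINA1, alpha-1 antitrypsin, was the most abundant, at 48.9 ± 1.38 FPKM in shIDH1, 46.3 ± 0.705 FPKM in shJOSD2 and 35.1 ± 2.36 FPKM in control libraries. APOA1, an apolipoprotein, had 2.91, 40.0 and 45.5 FPKM in control replicates 1, 2 and 3, with CFTR in the same order. The 10 fibroblast markers summed to 42.9 to 45.6 FPKM in shIDH1, 45.0 to 46.2 FPKM in shJOSD2 and 20.3 to 23.1 FPKM in control libraries. In the shIDH1 and shJOSD2 cells 5 and 3 of 7 tested were higher and none lower. Of the 10, 4, 5 and 4 averaged at least 1 FPKM in shIDH1, shJOSD2 and control libraries. ACTA2, the most abundant, averaged 27.3, 28.2 and 12.8 FPKM there. Among matrix genes, COL1A1 averaged 5.54, 1.96 and 1.91 FPKM, while DCN and LUM stayed below 0.04 FPKM. PDGFRB, COL1A1 and ACTA2 rose by 2.31 ± 0.23, 1.53 ± 0.11 and 1.09 ± 0.07 in shIDH1 cells, and PDGFRB, ACTA2 and PDGFRA by 2.51 ± 0.23, 0.99 ± 0.07 and 0.95 ± 0.11 in shJOSD2 cells. COL1A1 was higher in shIDH1 than in shJOSD2 cells by 1.64 ± 0.11, and THY1 and PDGFRA lower by -0.64 ± 0.15 and -0.32 ± 0.11, the second of these called in 14 of 20 alternatives and lost without each of the shJOSD2 replicates (adjusted p between 0.0511 and 0.0847) and without shIDH1 replicate 2 or 3 (adjusted p = 0.113 and 0.117). The 8 endothelial markers summed to 0.748 to 0.930 FPKM, 0.877 to 1.28 FPKM and 0.743 to 0.940 FPKM in the same groups, with PECAM1 the most abundant, and 2 rose in shIDH1 cells and none in shJOSD2 cells. Sums of the 11 leukocyte markers were 27.0 to 30.9, 26.5 to 34.2 and 33.1 to 40.5 FPKM, mostly CD68, a lysosomal membrane protein, which fell by 0.40 ± 0.11 in shIDH1 cells (adjusted p = 0.0706 against control replicate 1 alone) and 0.60 ± 0.11 in shJOSD2 cells. Of 10 tested, 1 rose and 1 fell in shIDH1 cells and 2 rose and 2 fell in shJOSD2 cells. Of 13 markers of other endodermal epithelia 11 were in the table, and these summed to 6.82 to 7.84, 9.997 to 10.9 and 7.05 to 8.62 FPKM, with 1 higher and 4 lower of 8 tested in shIDH1 cells and 2 higher and 1 lower in shJOSD2 cells. VIL1, villin, rose by 0.39 ± 0.08 and 0.58 ± 0.08 in these cells, and GATA4, an endodermal factor, fell by 0.77 ± 0.15 in shIDH1 cells and was lower there than in shJOSD2 cells by -1.0 ± 0.15. Their part in the changes of the 9 genes was not tested.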

How the data were processed

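Gene counts and FPKM values of 9 libraries were analysed. The submitters' processing notes name cutadapt 1.9, HISAT2 2.0.4, StringTie 1.3.4d and UMI-tools, and the build GRCh38; what each did, and with which annotation and strand setting, was not given in the sources used here. Counts are raw whole numbers as the authors deposited them. FPKM values, scaled by length and library size, were likewise deposited by the authors and used for levels. Among low counts, 4, 8 and 12 were commoner than their neighbours, so 1 fragment may carry about 4 counts and counting error would be larger than the counts imply. Replicates differed by more than counting noise (chi-square per degree of freedom 3.88 to 11.0 on counts divided by 4), so every library was kept as its own replicate.

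All libraries entered 1 edgeR 4.0.16 fit (R 4.3.3) with a mean per group, TMM scaling, the filterByExpr filter and quasi-likelihood tests, with Benjamini-Hochberg adjustment over 21492 genes. The SE was taken from the log2 change and the F statistic. The fitting step was tested on simulated data in which far fewer genes differed than were called here. It therefore does not bear on the choice of scaling. Alternatives were DESeq2 1.42.0, other scalings and filters, limma 3.58.1 on log2(FPKM + 1) and log2(FPKM + 0.1), counts divided by 4, the 2 compared groups alone, a replicate block, each library left out, and control replicate 1 as the lone control, which is then assumed to vary like the other groups. The 9 genes and the lists were chosen with earlier results of these data known. Of each list, up to 3 called genes per comparison with the largest change and at least 1 FPKM in a group were named, with the most abundant one, all keratins of at least 1 FPKM, and the 3 most similar genes of each marker. ALB, KRT5, PTPRC, DCN, LUM and FOXA1 were named after their values were seen. A result that the naming rule also selected is not reported here. Figures were drawn with matplotlib 3.10.9.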

Additional observations from a re-analysis of the deposited data

How the results depend on the processing

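With limma on log2(FPKM + 1) or log2(FPKM + 0.1), or library sizes without TMM factors, 3 of the 9 genes in shJOSD2 cells (KRT19, SOX9 and SPP1) were called in place of 7. Without TMM factors the median of all genes moved to 0.18 in shJOSD2 cells and to -0.21 between the hairpins, and the calls split into 5638 higher and 2934 lower (3907 and 4330 with TMM) and into 3316 higher and 6653 lower (4479 and 5156 with TMM). Upper-quartile scaling moved the median to 0.12 in each comparison with control, with 4827 higher and 3491 lower calls in shJOSD2 cells and 6176 higher and 4682 lower calls in shIDH1 cells (5258 and 5511 with TMM). For shJOSD2 cells against control, the split (higher to lower) was 5616 to 3069 when limma used log2(FPKM + 1). It was 5628 to 2995 when limma used log2(FPKM + 0.1). Between the hairpins the same 2 fits split the calls 3586 to 6835 and 3464 to 6736. Changes that had not passed the test turned sign for KRT19 in shIDH1 cells (0.0103, upper-quartile), SOX9 and CFTR in shIDH1 cells (-0.0612 and 1.42 against control replicate 1 alone), CFTR in shJOSD2 cells (1.64 against that library, between -0.878 and 0.14 with each library left out) and EPCAM in shJOSD2 cells (0.13 without TMM factors, 0.0628 with upper-quartile factors, 0.0097 at 1 CPM in 3 libraries, 0.12 with either limma fit, between -0.0398 and 0.0159 with each library left out, and 0.0126 against control replicate 1 alone). No call of the 9 genes changed direction. Against control replicate 1 alone, fewer genes were called over the whole set. There the list counts fell over 1.5-fold for other bile duct genes in shJOSD2 cells and for hepatocyte markers in both shIDH1 and shJOSD2 cells. Without shJOSD2 replicate 3, 7 hepatocyte markers were called in shJOSD2 cells in place of 11. Of all genes, 7010 of 22380 tested were called there, in place of 8237 of 21492. Between the hairpins, limma called 6 or 7 transport genes in place of 11, and 2 or 3 in place of 5 SOX genes were called in shIDH1 cells in 6 alternatives. Of all genes, the limma fits called 10421 and 10200 between the hairpins, in place of 9635. The cause was not tested. Of the 92 list counts that moved over 1.5-fold, the others concern lists with 5 or fewer calls. The shared replicate numbers did not pair the libraries (correlations of their deviations between -0.02 and 0.04), and with the replicate block 10416, 7823 and 9296 genes were called (10769, 8237 and 9635 without it), with no change for the 9 genes. Of 88 calls of named list genes, 74 held in every alternative run for them, and the other 14 did not in at least 1. CFTR has the fewest counts of the 9 genes, 18 to 118 per library.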
